A study of Mus musculus with 6 samples.

Results

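The expression of 10 autophagy genes was examined in the livers of aged, fasted mice that carry or lack *Sirt7*. The 10 genes, *Ulk1*, *Becn1*, *Atg5*, *Atg7*, *Atg12*, *Map1lc3a*, *Map1lc3b*, *Gabarapl1*, *Sqstm1* and *Bnip3*, are established members of the pathway. They are 10 of the 54115 genes with a transcript in the data and 10 of the 12524 genes tested, so every one of them passed the filter on low counts. RNA-seq was performed on bulk liver of 3 WT and 3 *Sirt7* KO mice, all of them male, 24 months of age and fasted for 16 h before the liver was taken. The KO line came from another laboratory and was backcrossed to C57BL/6J, and KO and WT mice were littermates of crosses between heterozygotes. The deletion was constitutive rather than specific to the liver, and no fed, young or female animals were part of the comparison. SIRT7 is a nuclear deacetylase and deacylase that depends on nicotinamide adenine dinucleotide.

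Autophagy delivers cytoplasm, proteins and organelles to the lysosome and supplies amino acids and lipids to the fasted liver. The ULK1 kinase complex starts the process, the Beclin 1 lipid kinase complex marks the membrane, and the E1-like enzyme ATG7 drives conjugation of ATG12 to ATG5 and of ATG8 proteins (the LC3 and GABARAP families) to lipid on the growing autophagosome. Cargo is tethered to the ATG8 proteins by receptors such as p62, the product of *Sqstm1*, for ubiquitinated proteins and BNIP3 for mitochondria. Much of this pathway is controlled at the level of protein, by phosphorylation, lipidation and degradation, which transcript counts do not measure.

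The libraries held 9994860 to 13424776 reads on transcripts. Marker genes of hepatocytes, such as *Alb* and *Ttr*, summed to 62160 to 77610 CPM (counts per 1000000 reads, with library sizes scaled by TMM) per liver, and none of the 8 was at 0 reads, so the tissue label held. Markers of other cell types were present at low sums: 48.2 to 154 CPM for Kupffer cells, 78.0 to 119 CPM for endothelial cells, 136 to 213 CPM for stellate cells, 47.9 to 73.4 CPM for bile duct cells and 4.13 to 12.1 CPM for lymphocytes. The 5 red blood cell genes summed to 374 to 547 CPM in WT and to 446 to 915 CPM in *Sirt7* KO livers, with livers 1 and 3 of the KO group highest. Their part in the results was not tested, and in bulk RNA fewer cells of one type cannot be told apart from less RNA per cell. The full-length *Sirt7* isoform, with 10 exons, stood at 36.3, 34.6 and 30.2 CPM in the WT livers and at 11.4, 14.3 and 7.47 CPM in the KO livers, in the direction of the labels. Counts of the whole *Sirt7* gene differed less (49.3 ± 5.19 against 37.0 ± 7.34 CPM, SD, n = 3 each, log2 fold change -0.41, adjusted p = 0.42), and the sign turned with offsets for transcript length (0.80, adjusted p = 0.27). The mean effective length of the counted *Sirt7* transcripts was 1278 to 1444 bases in WT and 500.5 to 691 bases in KO livers. Across all genes, edgeR called 1 of 12524 genes at an adjusted p under 0.05 and a fold change over 1.5 (0.00798%), and DESeq2 called 256 of 14504 (1.77%).

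Transcription factors of the TFEB and hypoxia-inducible families regulate autophagy genes and recognize short motifs, so the promoters were read beside the counts. RefSeq promoter sequences of GRCm38.p6, from 250 bases before the start of the gene, were at hand for 7 of the 10 genes and not for *Becn1*, *Map1lc3a* and *Atg12*. The palindromic E-box CACGTG occurred in 3 of the 7, *Atg5*, *Atg7* and *Bnip3*, and in 6.02% of 32851 promoters. ACGTG, the core of the hypoxia response element and itself part of that E-box, was searched on both strands and occurred in the same 3 genes, against 16.6% of all promoters. Neither the FOXO motif GTAAACA nor the nuclear receptor half-site AGGTCA was found in any of the 7, and they occurred in 3.17% and 14.0% of all promoters. These matches describe the letters of the window only. The stretches before *Bnip3* and *Atg5*, which had the lowest and the highest fold change of the 10 genes, are shown with the E-box in capitals. It begins 108 bases before the RefSeq start in *Bnip3* (chr7:138909520-138909756, minus strand, GRCm38.p6) and 14 bases before it in *Atg5* (chr10:44268089-44268338, plus strand, GRCm38.p6), and bases that belong to the gene were left off.
Bnip3: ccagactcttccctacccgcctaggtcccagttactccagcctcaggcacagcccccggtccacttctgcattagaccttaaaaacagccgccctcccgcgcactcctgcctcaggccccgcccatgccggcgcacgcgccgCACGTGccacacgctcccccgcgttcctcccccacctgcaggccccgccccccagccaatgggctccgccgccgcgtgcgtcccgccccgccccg
Atg5: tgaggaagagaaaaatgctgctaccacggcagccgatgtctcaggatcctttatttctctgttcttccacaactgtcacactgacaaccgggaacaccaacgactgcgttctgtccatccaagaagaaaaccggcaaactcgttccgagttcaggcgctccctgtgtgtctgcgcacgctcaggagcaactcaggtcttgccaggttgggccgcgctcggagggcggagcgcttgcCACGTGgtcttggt
The stretches before *Bnip3* and *Atg5* had GC contents of 72.6% and 56.4%.

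Transcripts of the 10 genes spanned a 60.9-fold range of length-scaled levels, in TPM (reads per base of transcript, scaled to a common total; mean over the 6 livers). The mitophagy receptor *Bnip3* was the highest at 284 ± 75.6 TPM (SD, n = 6), followed by *Sqstm1* at 208 ± 18.9, *Map1lc3b* at 149 ± 16.2 and *Gabarapl1* at 144 ± 27.1 TPM. *Map1lc3a* reached 62.7 ± 11.4 and *Becn1* 55.0 ± 7.45 TPM. The conjugation genes and the kinase were lower still, with *Atg5* at 24.1 ± 4.27, *Atg7* at 16.1 ± 3.08, *Ulk1* at 10.9 ± 2.39 and *Atg12* at 4.66 ± 0.666 TPM. Receptors and ATG8 genes thus stood above the conjugation genes. Of the 9 pairs of neighbours in this order, 5 kept it in all 6 livers and 4 had ranges that did not overlap: *Sqstm1* over *Map1lc3b*, *Gabarapl1* over *Map1lc3a*, *Becn1* over *Atg5*, and *Ulk1* over *Atg12*. *Atg7* lay above *Ulk1* in all 6 livers although the ranges met, and the other neighbours could not be separated beyond their spread. The TPM of *Becn1* leaned on a short isoform. Becn1-204, of 375 bases, held 24.8 to 65.5 reads per liver but a mean of 46.9% of *Becn1* TPM in WT and 44.5% in KO livers. In CPM, which is not scaled to length, *Becn1* (51.5 in WT, 52.9 in KO) and *Atg5* (48.9 and 60.7) were close. *Bnip3* lay above *Sqstm1* in 5 livers of 6, and the order of this pair differed by genotype: by mean TPM *Bnip3* was first in WT (352 ± 12.8, n = 3) and second in *Sirt7* KO livers (215 ± 5.92, against 216 ± 10.7 for *Sqstm1*).

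Between the genotypes, 2 of the 10 genes were lower in *Sirt7* KO livers at an unadjusted p under 0.05, *Bnip3* and *Map1lc3a*, and none was higher. For all genes tested, 4.78% were lower and 6.54% higher at that threshold. After Benjamini-Hochberg adjustment over the 12524 genes, edgeR called 0 of the 10, with adjusted p from 0.19 to 0.95. DESeq2 called 1, *Bnip3*, where it called 0.483% of all genes lower. The same 2 genes were the only ones whose 3 KO values all lay below the 3 WT values, where 8.09% of all genes lay below and 8.74% above in this way, and in the other 8 the genotypes overlapped. The median log2 fold change of the 10 was -0.003, next to -0.006 for all genes tested, with 5 genes above and 5 below 0 (49.3% of all genes were above). An exact permutation test of 3 livers against 3 cannot go below p = 0.1 for any single gene.

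**Figure D1:**
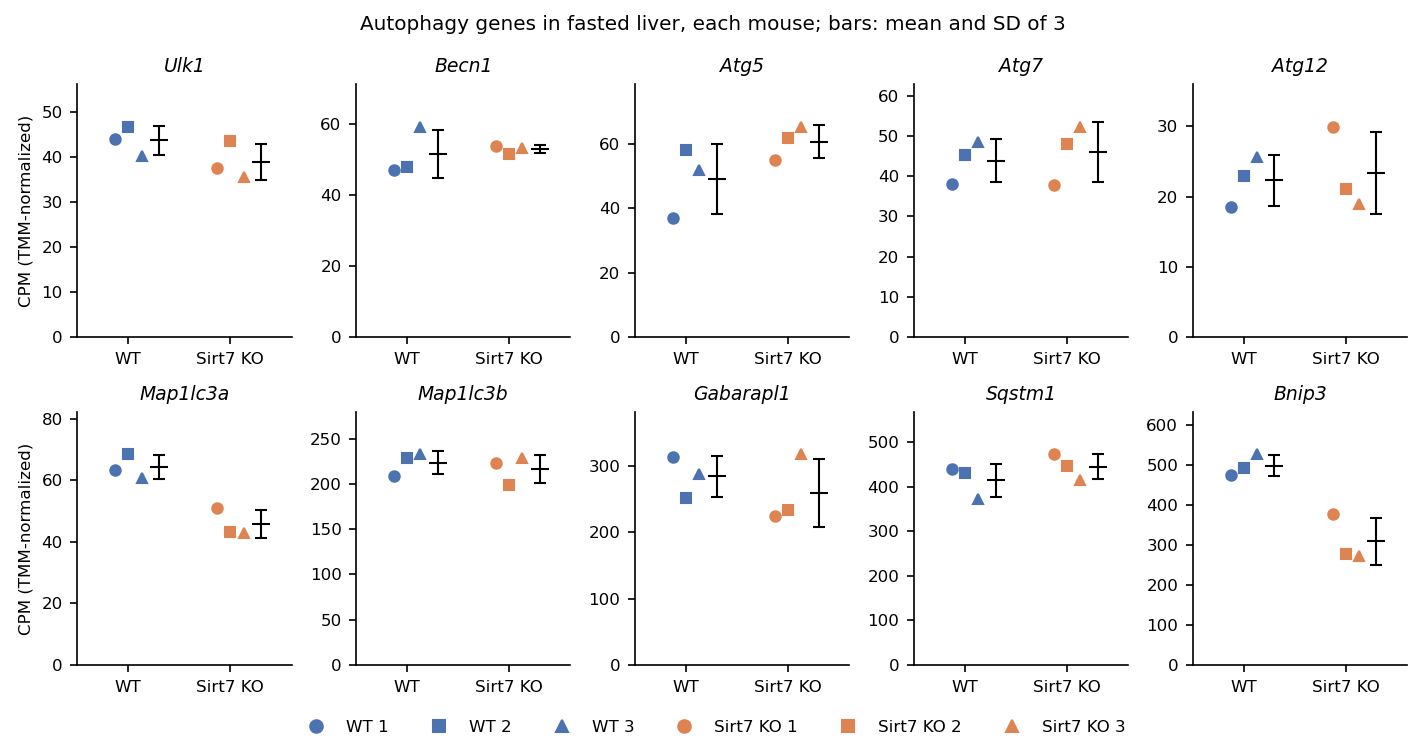
CPM of the 10 genes in each of the 6 livers (vertical axes, one scale per gene, each from 0), with WT in blue, *Sirt7* KO in orange, symbols for livers 1 to 3, and a bar for the mean and SD of 3. The orange points of *Map1lc3a* and *Bnip3* all lie below the blue ones, and those of the other 8 genes overlap.

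*Bnip3* (ENSMUSG00000078566.8, chr7:138890836-138909519 of GRCm38, minus strand) encodes a receptor in the outer mitochondrial membrane that binds ATG8 proteins and is induced by hypoxia and by fasting. It was counted at 476, 493 and 526 CPM in the WT livers and at 377, 278 and 271 CPM in the *Sirt7* KO livers. Every KO value was below every WT value, with a gap of 98.7 CPM, and KO liver 1 was the closest to WT. The means were 498 ± 25.6 and 309 ± 59.3 CPM (SD, n = 3 each), so the KO mean was 62.0% of the WT mean. The log2 fold change was -0.69 (SE 0.17, 95% interval -1.07 to -0.31), with unadjusted p = 0.0028 and adjusted p = 0.19 by the edgeR quasi-likelihood test, and 1.48% of all genes had a smaller p. By DESeq2 the adjusted p was 0.011, and 0.025 with offsets for transcript length, a fit that called 0.532% of all genes lower. Without KO liver 1 the edgeR fit gave -0.86 with an adjusted p of 0.027, and no other single liver brought it below 0.05 when left out. It was the only one of the 10 past an unadjusted p of 0.05 together with a fold change over 1.5, as 2.96% of all genes were in the lower direction.

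Reads of *Bnip3* could not all be assigned to it without doubt. Of its 2255 distinct words of 31 bases, 1053 (46.7%) also occur, on the opposite strand, in AC160336.1 (ENSMUSG00000115801.1), a lincRNA of 93147 bases without introns at chr14:44544055-44637201. The library kit did not mark the strand, so such reads match both. AC160336.1 was counted at 446, 502 and 465 CPM in the WT livers and at 518, 308 and 269 CPM in the KO livers. On the length-scaled measure it was far below *Bnip3*, at 2.42 to 4.32 TPM against 209 to 365 TPM, and 1.24% of its own words occur in *Bnip3*. Its log2 fold change was -0.37 (SE 0.24, unadjusted p = 0.16, adjusted p = 0.61, edgeR), with overlapping genotypes. When its reads were added to those of *Bnip3*, the sums were 922, 995 and 991 CPM in WT and 895, 586 and 540 CPM in KO livers, which did not overlap. This sum gave a log2 fold change of -0.52 (SE 0.21, unadjusted p = 0.033, adjusted p = 0.38). How the quantification divided reads between them was not tested.

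*Sqstm1* (ENSMUSG00000015837.15, chr11:50199366-50210827, minus strand) encodes p62, which carries ubiquitinated cargo to the autophagosome and is itself degraded there. It was counted at 439, 431 and 371 CPM in WT and at 472, 447 and 416 CPM in *Sirt7* KO livers. These ranges overlapped, and the log2 fold change was 0.10 (SE 0.14, 95% interval -0.22 to 0.43, adjusted p = 0.83). An antisense neighbour, *Mrnip*, shares 580 exonic bases with *Sqstm1* but was counted at only 70 to 133 reads per liver. Set against *Sqstm1* within the same library, a ratio chosen after the values were seen, *Bnip3* gave 1.08, 1.14 and 1.42 reads per *Sqstm1* read in WT and 0.799, 0.623 and 0.653 in KO livers. The ratio did not overlap (exact permutation test, two-sided, p = 0.1). *Bnip3* itself did not overlap and *Sqstm1* differed little, so the ratio is no separate evidence. *Bnip3l*, the closest relative of *Bnip3* and also a mitophagy receptor, had a log2 fold change of -0.19 (SE 0.14, adjusted p = 0.67), with 97.6, 108 and 95.7 CPM in WT and 97.2, 86.5 and 81.0 CPM in KO livers.

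*Map1lc3a* (ENSMUSG00000027602.9, chr2:155276297-155278073, plus strand) encodes LC3A, one of the ATG8 proteins that are attached to lipid on the autophagosome. It was counted at 63.3, 68.4 and 60.7 CPM in the WT livers and at 50.9, 43.3 and 43.0 CPM in the *Sirt7* KO livers. The genotypes did not overlap, with a gap of 9.82 CPM. The means were 64.2 ± 3.90 and 45.7 ± 4.48 CPM (SD, n = 3 each), or 71.3% of WT. The log2 fold change was -0.49 (SE 0.14, 95% interval -0.80 to -0.17), with unadjusted p = 0.0068 and adjusted p = 0.23 by edgeR, and adjusted p = 0.22 by DESeq2. With offsets for transcript length DESeq2 gave -0.39 (unadjusted p = 0.065, adjusted p = 0.53), past neither threshold. Unlike *Bnip3*, it shared no word of 31 bases with any other gene. Leaving out any 1 liver kept the log2 fold change between -0.57 and -0.44, with the adjusted p at 0.081 or above.

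As the quantification model divided the reads, the difference lay in 1 of the 3 annotated isoforms of *Map1lc3a*. The protein-coding isoform Map1lc3a-201, of 1112 bases and 4 exons, was assigned 45.5, 44.4 and 42.1 CPM in WT and 26.1, 25.0 and 23.1 CPM in KO livers. Both other isoforms, which are annotated without a coding sequence, summed to 17.8, 24.0 and 18.6 CPM in WT and to 24.8, 18.4 and 19.8 CPM in KO livers, with overlap. The coding share of *Map1lc3a* reads was therefore 71.9, 64.9 and 69.3% in WT and 51.2, 57.6 and 53.8% in KO livers (exact permutation test, two-sided, p = 0.1). Counted by the coding isoform alone, the log2 fold change was -0.83 (SE 0.13, unadjusted p = 0.00015, adjusted p = 0.084), and 0.176% of genes had a smaller p. Every other gene was counted whole in this fit, so neither the adjusted p nor the 0.176% has a matching background. The other isoforms of *Map1lc3a* gave 0.06 (SE 0.19, adjusted p = 0.94). Both fits were chosen after the values were seen, and the difference between the isoforms had no test beyond that of the share. Of the 1082 words of 31 bases in the coding isoform, 278 (25.7%) occur in neither of the others, so most reads were divided by the quantification model. Reads were placed on both noncoding isoforms in WT liver 3 (135 and 117) and KO liver 3 (134 and 72.1) and on only one of them in the other 4 livers, so only their sum is compared.

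**Figure D2:**
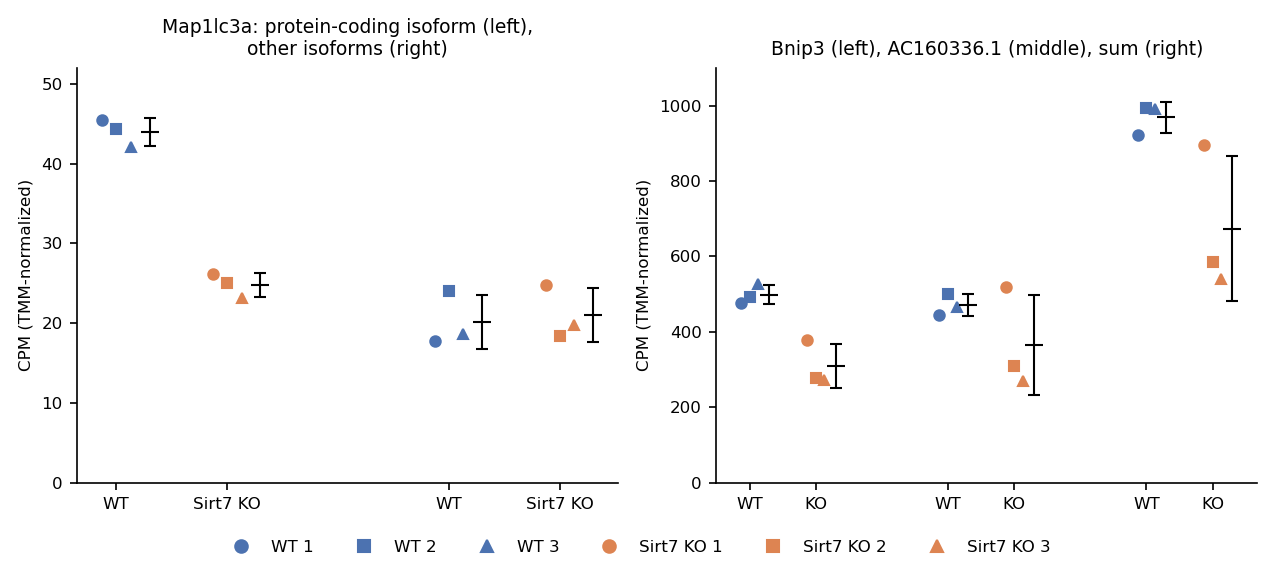
CPM in each liver (WT blue, *Sirt7* KO orange, bars for mean and SD of 3) of the coding and the other isoforms of *Map1lc3a* on the left, and of *Bnip3*, AC160336.1 and their sum on the right. The coding isoform of *Map1lc3a* lies at 42.1 to 45.5 CPM in WT and at 23.1 to 26.1 CPM in KO livers, while its other isoforms overlap; KO liver 1 is the highest of all 6 for AC160336.1.

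The remaining ATG8 genes differed less. *Map1lc3b* (ENSMUSG00000031812.16, chr8:121590361-121598760, plus strand), which encodes the LC3B protein used as a marker of autophagosomes, was counted at 209, 229 and 233 CPM in WT and at 223, 199 and 228 CPM in *Sirt7* KO livers. Its log2 fold change of -0.04 (SE 0.14, 95% interval -0.35 to 0.26, adjusted p = 0.94) was within the spread of the replicates, and the value was 0.01 without KO liver 2. *Gabarapl1* (ENSMUSG00000030161.8, chr6:129533160-129542346, plus strand), of the GABARAP family, was counted at 314, 251 and 287 CPM in WT and at 225, 234 and 317 CPM in KO livers. KO liver 3 was the highest of the 6 and KO liver 1 the lowest, and the log2 fold change was -0.14 (SE 0.18, 95% interval -0.54 to 0.27, adjusted p = 0.83). *Gm6055*, annotated as a processed pseudogene, holds 317 of the 7572 words of *Map1lc3b* and took 79 to 181 reads per liver, against 1878 to 3144 for *Map1lc3b*.

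Within each library, 0.303, 0.299 and 0.261 reads of *Map1lc3a* were counted per *Map1lc3b* read in WT, and 0.229, 0.218 and 0.188 in *Sirt7* KO livers. That ratio, chosen after the values were seen, did not overlap (exact permutation test, two-sided, p = 0.1). *Map1lc3a* itself did not overlap and *Map1lc3b* differed little, so this ratio is no separate evidence. *Map1lc3a*, *Map1lc3b*, *Gabarapl1*, *Gabarap* and *Gabarapl2* together reached 781, 673 and 671 TPM in WT and 575, 583 and 649 TPM in KO livers, which did not overlap. Their CPM sums did overlap, at 857, 806 and 824 in WT and 743, 698 and 810 in KO livers. All 5 had a log2 fold change below 0 under each of the normalizations and offsets tried, with a median of -0.14. Of all genes tested, 49.3% were above 0. Only *Map1lc3a* passed an unadjusted p of 0.05, where 4.78% of all genes were lower. Shares within the family overlapped between genotypes for each of the 5: *Gabarap* made up 37.2 ± 0.543% of the family in WT and 37.1 ± 2.37% in KO livers, and *Map1lc3a* 10.3 ± 0.657% and 8.81 ± 0.992% (SD, n = 3 each).

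The conjugation genes showed no difference beyond the spread between livers. *Atg7* (ENSMUSG00000030314.16, chr6:114643097-114860614, plus strand), the E1-like enzyme that activates both ATG12 and the ATG8 proteins, was counted at 37.9, 45.3 and 48.5 CPM in WT and at 37.7, 48.1 and 52.3 CPM in *Sirt7* KO livers. Its log2 fold change was 0.07 (SE 0.17, 95% interval -0.32 to 0.45, adjusted p = 0.92). *Atg5* (ENSMUSG00000038160.7, chr10:44268358-44364291, plus strand), which receives ATG12, was counted at 36.9, 58.1 and 51.8 CPM in WT and at 55.0, 61.7 and 65.3 CPM in KO livers. WT liver 1 stood below the other 5, and the log2 fold change of 0.31 (SE 0.18, 95% interval -0.11 to 0.73, unadjusted p = 0.13, adjusted p = 0.58) was 0.14 without it. *Atg12* (ENSMUSG00000032905.5, chr18:46730144-46741580, minus strand), a ubiquitin-like protein, had the fewest reads of the 10, with 196 to 346 per liver. Its values of 18.5, 22.9 and 25.6 CPM in WT and 29.9, 21.1 and 18.9 CPM in KO livers spanned the same range, with KO liver 1 highest (log2 fold change 0.06, SE 0.21, 95% interval -0.42 to 0.54, adjusted p = 0.95). The intervals of *Atg5* and *Atg12* thus still held increases of up to 0.73 and 0.54.

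Initiation was represented by *Ulk1* and *Becn1*. *Ulk1* (ENSMUSG00000029512.11, chr5:110784488-110810097, minus strand), the kinase that mTORC1 inhibits and AMPK activates, was counted at 44.0, 46.7 and 40.2 CPM in WT and at 37.6, 43.5 and 35.7 CPM in *Sirt7* KO livers. These overlapped, with a log2 fold change of -0.17 (SE 0.14, 95% interval -0.49 to 0.16, adjusted p = 0.71). The value depended on the treatment of transcript length: with length offsets edgeR gave -0.52 (unadjusted p = 0.0059, adjusted p = 0.28), and *Ulk1* TPM did not overlap, at 13.2, 12.7 and 13.1 in WT and 7.99, 8.70 and 9.59 in KO livers. The full-length, 28-exon isoform of *Ulk1* held 94.8 ± 0.794% of the reads in WT and 96.8 ± 1.95% in KO livers, but 53.8% and 70.9% of the TPM. The rest of the TPM thus came from short transcripts with few reads, as Ulk1-208, an intron-retaining transcript of 613 bases, held 1.15 to 12.4 reads per liver and 11.7% of *Ulk1* TPM in WT.

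*Becn1* (ENSMUSG00000035086.13, chr11:101285952-101302286, minus strand), which encodes Beclin 1 of the lipid kinase complex, was counted at 47.2, 48.1 and 59.3 CPM in WT and at 53.8, 51.6 and 53.4 CPM in *Sirt7* KO livers. The KO values lay inside the WT range (log2 fold change 0.04, SE 0.14, 95% interval -0.29 to 0.36, adjusted p = 0.95). Its reads were mostly assigned to isoforms annotated as targets of nonsense-mediated decay or as intron-retaining, and 11.3 ± 2.57% in WT and 11.1 ± 2.54% in KO livers to protein-coding isoforms. This split is an estimate of the quantification model over 17 annotated transcripts, and it varied between replicates. Becn1-214 was assigned 5.43, 58.9 and 20.2 reads in WT and 0, 65.7 and 18.0 reads in KO livers. *Becn1* was the only gene of the 10 whose leading isoform was not protein-coding. The antisense gene *Cntd1*, with which it shares 3104 exonic bases, was assigned 0 or 1 read per liver.

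Isoform shares were compared for all 10 genes. The share of reads on the leading isoform did not overlap between genotypes in 3, *Map1lc3a*, *Map1lc3b* and *Atg12*. For *Map1lc3b* the leading isoform held 68.1 ± 3.44% in WT and 72.8 ± 0.255% in *Sirt7* KO livers. For *Atg12* it held 94.4 ± 1.83% in WT and 98.2 ± 0.365% in KO livers, where an intron-retaining transcript held a mean of 14.2 reads in WT and 4.33 in KO livers. Each of these gave an exact permutation p of 0.1, the smallest that 3 against 3 allows, and all 10 genes have more than 1 annotated transcript. Of the 10685 tested genes with more than 1 transcript, 8.13% had a leading share of reads that did not overlap, in either direction. By TPM the share did not overlap in 4 of the 10, with *Ulk1* added, against 8.37% of all genes.

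**Figure D3:**
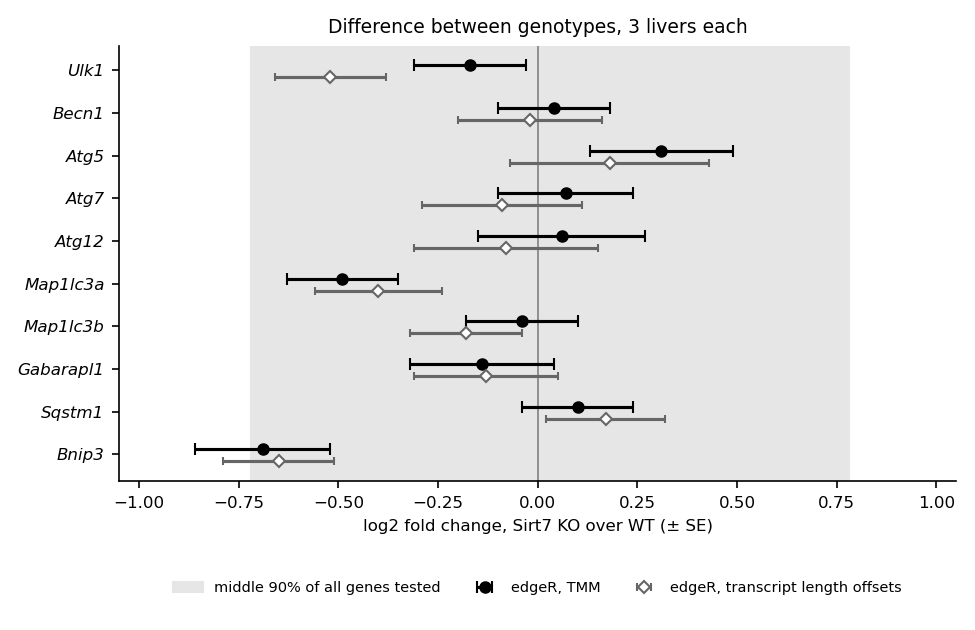
Log2 fold change of *Sirt7* KO over WT (horizontal axis, ± SE, 3 livers per genotype) for the 10 genes by TMM-normalized counts (black) and with offsets for transcript length (open diamonds), over the range of the middle 90% of all genes tested (grey, -0.72 to 0.78). All 10 black points lie inside the grey range, with *Bnip3* at -0.69 nearest to its edge, and *Ulk1* moves from -0.17 to -0.52 with the offsets.

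A wider list of 89 further autophagy genes, sorted by function, was read in the same fit. Of these, 88 were tested, since *Ddit4* had 5 to 15 reads per liver and did not pass the filter. At an unadjusted p under 0.05, 5 were higher and 5 lower in *Sirt7* KO livers, which is 11.4% of the list against 11.3% of all genes tested, and edgeR called 0 after adjustment. The median log2 fold change was 0.00, with 45 genes above and 43 below 0.

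Among the genes with *Ulk1* in the initiation complex, *Atg13* (25.8 ± 3.86 CPM in WT, 35.8 ± 2.76 in KO, log2 fold change 0.47, SE 0.16, adjusted p = 0.31) and *Atg101* (43.4 ± 4.55 and 62.3 ± 12.1 CPM, 0.52, SE 0.18, adjusted p = 0.31) were higher without overlap. Of all genes tested, 8.74% lay above in this way and 6.54% were higher at an unadjusted p under 0.05. Both genes encode subunits that bind each other next to the kinase, and whether they differed together was not tested. *Rb1cc1* and *Ulk2*, the others, had log2 fold changes of 0.06 and 0.35 with overlap. *Ulk1* was the only one of the 5 below 0, except with total counts or with length offsets, where 2 were below 0. Of the genes upstream, *Sesn3*, a stress-induced inhibitor of mTORC1 signalling, had the largest difference of the list (2.60 ± 0.902 and 6.07 ± 2.12 CPM, log2 fold change 1.22, SE 0.38, adjusted p = 0.27), at only 23 to 87 reads per liver.

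Beside *Becn1*, the lipid kinase list stayed between -0.10 and 0.21 on the log2 scale in all 10 genes. In this list 0 passed an unadjusted p of 0.05, where 11.3% of all genes tested did. *Wipi1*, which binds the lipid that this kinase makes, was higher (7.78 ± 0.853 and 13.2 ± 2.93 CPM, log2 fold change 0.76, SE 0.22, adjusted p = 0.25). In conjugation, 9 of 10 genes including *Atg5*, *Atg7* and *Atg12* had a log2 fold change above 0, where 49.3% of all genes tested did. With total counts 5 of 10 were above 0, and 7 of 10 in edgeR with length offsets. The median of the conjugation genes was 0.18, and 0 passed an unadjusted p of 0.05, against 11.3% of all genes.

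Of 20 cargo receptors, *Bnip3* and *Bcl2l13*, which is likewise a receptor for mitochondria (29.9 ± 3.61 and 23.2 ± 2.83 CPM, -0.37, SE 0.16, adjusted p = 0.44), were lower at an unadjusted p under 0.05 and none was higher. These were 2 of the 20, where 4.78% of all genes were lower and 6.54% higher at that threshold. In the fusion step, the SNARE gene *Vamp8* was lower (142 ± 5.79 and 112 ± 14.5 CPM, -0.34, SE 0.14, adjusted p = 0.41) and the tethering adaptor *Plekhm1* higher (5.19 ± 1.44 and 9.46 ± 1.68 CPM, 0.86, SE 0.28, adjusted p = 0.29). None of these differences passed the adjustment.

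**Figure D4:**
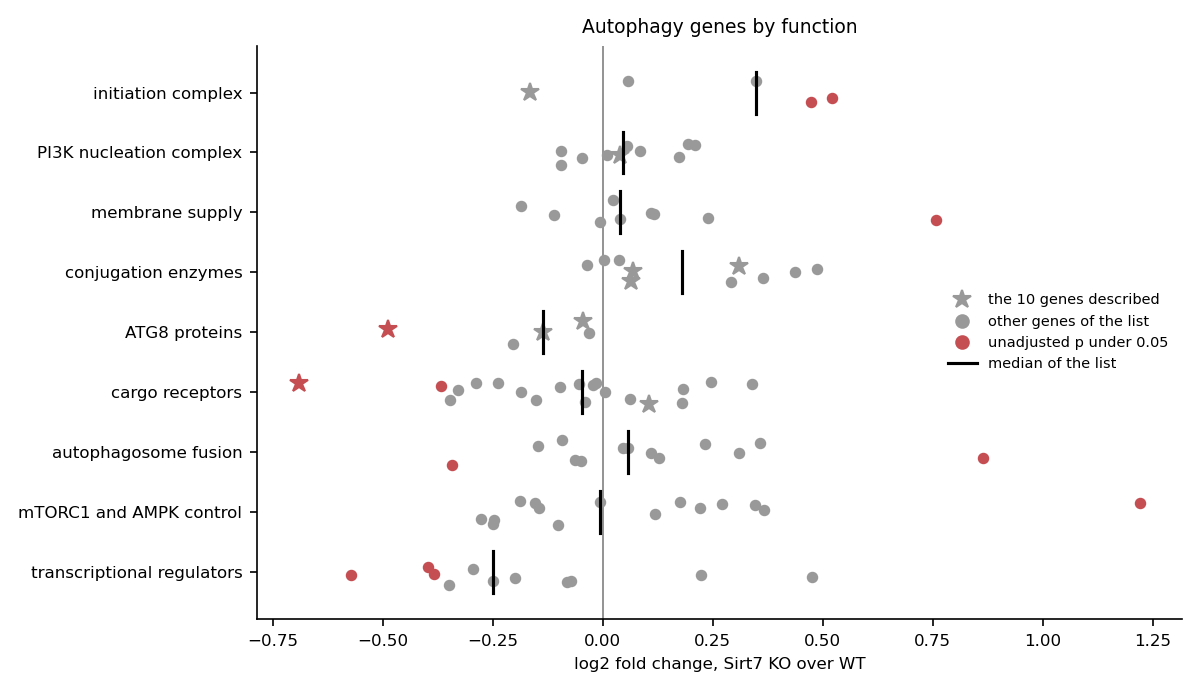
Log2 fold change of *Sirt7* KO over WT (horizontal axis) of the 10 genes described (stars) and the 88 others tested (circles), in 9 groups by function, with genes at an unadjusted p under 0.05 in red and the median of each group as a bar. Red points lie on both sides of 0, with *Bnip3* the lowest at -0.69 and *Sesn3* the highest at 1.22.

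Of the 11 transcriptional regulators of autophagy, 9 had a log2 fold change below 0 (8 by DESeq2 with length offsets, median -0.25), where 49.3% of all genes were above 0, and 3 were lower at an unadjusted p under 0.05 (4.78% of all genes). These were *Ppara*, the nuclear receptor of the fasting response (100, 163 and 150 CPM in WT, 117, 83.0 and 77.4 in *Sirt7* KO livers, log2 fold change -0.57, SE 0.23, adjusted p = 0.38), *Foxo1* (-0.40, SE 0.17, adjusted p = 0.42) and *Crtc2* (-0.38, SE 0.14, adjusted p = 0.36). *Foxo1* and *Crtc2* act in the hepatic response to fasting, and their values did not overlap between genotypes, whereas those of *Ppara* did. Of all genes tested, 8.09% lay below without overlap.

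The level of *Bnip3* in each liver was therefore set beside 24 genes that PPAR-alpha induces on fasting. In that list 12 genes were lower at an unadjusted p under 0.05 and none was higher, where 4.78% of all genes were lower and 6.54% higher, with a median log2 fold change of -0.65, and edgeR called 0 after adjustment. Among its most abundant genes were *Fabp1*, a fatty acid binding protein (log2 fold change -0.66, adjusted p = 0.59), *Cyp4a10*, a fatty acid hydroxylase (-1.81, adjusted p = 0.20), and *Acaa1b*, a peroxisomal thiolase (-0.93, adjusted p = 0.39). Centred on the mean of the 6 livers, the log2 level of the list averaged 0.19, 0.93 and 0.41 in WT and 0.39, -0.84 and -1.08 in *Sirt7* KO livers. KO liver 1 was therefore among the WT livers for the fasting genes, and the others were far below. *Bnip3* on the same scale stood at 0.29, 0.34 and 0.43 in WT and at -0.05, -0.49 and -0.52 in KO livers, and *Map1lc3a* at 0.23, 0.34 and 0.17 and at -0.09, -0.32 and -0.33. Of the other 8 autophagy genes, *Atg5* ranged from -0.54 to 0.27 and *Atg12* from -0.28 to 0.41. The part of the fasting genes in the *Bnip3* and *Map1lc3a* results was not tested.

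**Figure D5:**
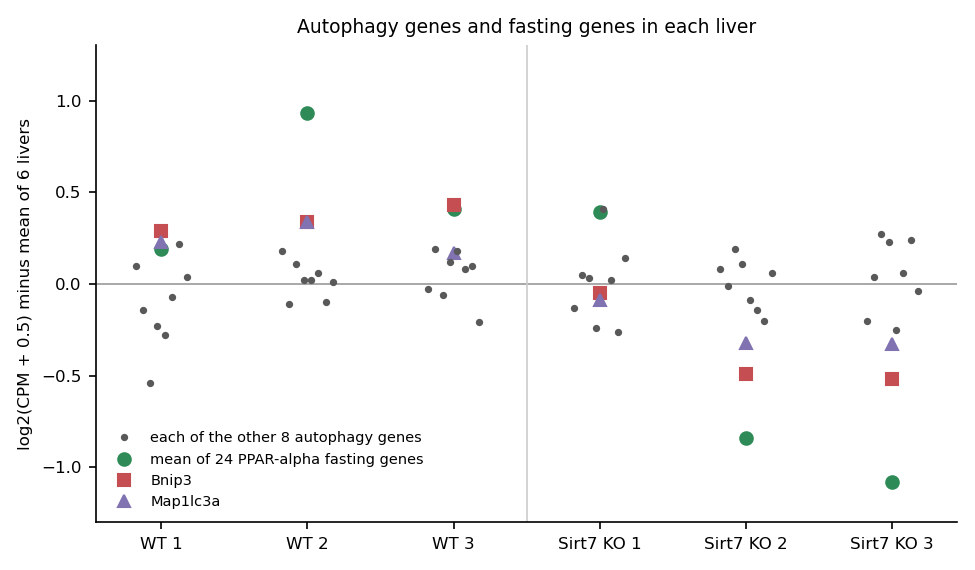
Log2(CPM + 0.5) minus its mean over the 6 livers (vertical axis) for each liver, as the mean of 24 PPAR-alpha fasting genes (green circles), *Bnip3* (red squares), *Map1lc3a* (purple triangles) and each of the other 8 autophagy genes (small grey points). *Sirt7* KO livers 2 and 3 are the lowest for the first 3, KO liver 1 lies at 0.39 for the fasting genes and at -0.05 for *Bnip3*, and the grey points of single genes spread between -0.54 and 0.41.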

How the data were processed

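Liver RNA-seq of 3 WT and 3 *Sirt7* KO mice was analyzed, grouped by the sample labels. From 1 ng of RNA, the authors made SMART-seq HT and Nextera XT libraries, trimmed the reads with Trim Galore 0.6.5 and quantified transcripts with Salmon 1.2.1 (names and versions per the submitters' processing notes, build GRCm38). The authors deposited estimated counts per transcript, not normalized and not whole, and TPM, which are scaled to effective length and to a fixed total, so TPM levels depend on how Salmon divided reads between isoforms. The annotation release was not given in the sources used here.

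Estimated counts were summed per gene of GENCODE M21 (1201 of 140992 transcripts had no gene there) and rounded. Genes were tested with edgeR 4.0.16 in R 4.3.3 (TMM, filterByExpr with minimum count 10, quasi-likelihood test, Benjamini-Hochberg over 12524 genes). A call needed an adjusted p under 0.05 and a fold change over 1.5. DESeq2 1.42.0, length offsets, other normalizations and filters, a replicate block and leaving out each liver were alternatives. The 95% intervals use the degrees of freedom of the edgeR fit. Exact permutation tests were two-sided, and the fits were tested on simulated data. Shared words of 31 bases and motifs were found with Python 3.11.15. Depth, without molecular identifiers, covers counting error only, no pair of livers agreed within sampling noise, and the labels call them biological replicates. The members, gene lists and rule for named genes (the 10 genes, *Sirt7*, list genes with an unadjusted p under 0.05, and the 4 most abundant fasting genes) were chosen with earlier results of these data known. The values of 1 gene under this rule are not reported here. *Rb1cc1*, *Ulk2*, *Bnip3l*, *Gabarap*, *Gabarapl2*, AC160336.1 and the genes that share sequence with the 10 were named after their values were seen.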

Additional observations from a re-analysis of the deposited data

How the results depend on the processing

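The count of the 10 genes lower at an unadjusted p under 0.05 was 2 under RLE, upper quartile and total count normalization, under both other filters, with DESeq2 and without any 1 liver, and was 3 in edgeR with length offsets, where *Ulk1* passed. By DESeq2 with length offsets it was also 2, but these were *Bnip3* and *Ulk1* (-0.51, unadjusted p = 0.014). *Map1lc3a* did not pass in that fit (unadjusted p = 0.065). Of the 10 genes, 1 was called in place of 0 with no filter on low counts, by DESeq2, by DESeq2 with length offsets, without *Sirt7* KO replicate 1, and at an unadjusted p under 0.05 with a fold change over 1.5; leaving out each liver gave 0 to 1. That gene was *Bnip3* each time. Genes called over the whole table numbered 1 in the report, 2 with total counts, 633 with no filter, 2 in edgeR with length offsets, 256 by DESeq2, 242 by DESeq2 with length offsets, 925 at the unadjusted threshold and 0 to 252 without 1 liver, the highest without *Sirt7* KO replicate 1. The median of the 10 genes was -0.108 with total counts, where all genes shifted by -0.11, -0.111 in edgeR and -0.101 in DESeq2 with length offsets, and -0.063 to 0.025 without 1 liver. Of the further autophagy genes, 4 to 17 had an unadjusted p under 0.05 without 1 liver, the most without *Sirt7* KO replicate 1. That fit also called the most genes over the whole table when 1 liver was left out. The share of all genes at the unadjusted threshold is not given for these fits, so the counts are no result about autophagy genes. The cause of these shifts was not tested.

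Changes of sign were seen only in genes near 0 and in *Sirt7*, by log2 fold change. With total counts *Becn1* gave -0.07, *Sqstm1* -0.01, *Atg7* -0.04 and *Atg12* -0.03. With length offsets *Becn1* gave -0.02 in edgeR and -0.01 in DESeq2, *Atg7* -0.09 and -0.08, *Atg12* -0.08 and -0.08, and *Sirt7* 0.80 and 0.81. Without 1 liver, *Becn1* ranged from -0.03 to 0.16, *Atg7* from -0.03 to 0.20, *Atg12* from -0.16 to 0.19 and *Map1lc3b* from -0.10 to 0.01. The noncoding isoforms of *Map1lc3a*, added after seeing the data, gave 0.06.

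Whether the replicate numbers of the labels pair the livers could not be settled with 3 livers per genotype. Deviations from the group means correlated at 0.065, 0.08 and -0.044 between livers of the same number. Between livers of different numbers the correlations ran from -0.103 to 0.049. With the replicate block 41 genes were called, against 1 without it, and *Bnip3* gave -0.71 (adjusted p = 0.20). No call on the 10 genes changed with the block.

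At 9994860 or more reads per liver and 3 livers per genotype, the median SE of the 10 genes was 0.16 on the log2 scale, which limits what could be detected.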
